A study of Mus musculus with 72 samples.

Results

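The genes described here are 41 mouse interferon-stimulated genes with varied functions, from the ubiquitin-like modifier Isg15 and its enzymes to poly(ADP-ribose) polymerase relatives, nuclear body proteins, nucleases, helicases, membrane proteins and several induced proteins of the cytosol. They were found by gene symbol in the 3 deposited tables of transcript abundance and make up 41 of the 18472 genes that at least 1 of the tables lists. The table for marrow-derived macrophages lists 39 of them (Rtp4 and Ifi44l are not listed), the table for the 16 h and 6 h experiments in RAW264.7 cells lists 40 (Rtp4 is not listed), and the table for the IFNB1 experiment lists all 41. The filter on low values asked for 1 TPM in 3 libraries of an experiment, and every listed member passed it and was tested. Some members had vehicle means under 1 TPM, such as Ddx60 and Isg20 in the 16 h experiment and Ifi44 in marrow-derived cells. There the groups given LPS, in which they were higher, counted towards that limit. In the IFNB1 experiment every group had LPS, and Ddx60 met the limit only through the groups labelled Setd1aDel/+.

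The study measured polyadenylated RNA in 72 libraries from mouse macrophages with altered Setd1a or Setd1b, histone methyltransferases that act at promoters. The libraries fall into 24 groups of 3 in 4 experiments, and n is 3 for every group mean below. Bone marrow-derived macrophages came from C57BL/6J mice and were grown for 7 days with medium from L929 cells. Their labels say female, whereas the growth protocol speaks of male animals. The cells called control here are titled wt but have Setd1bHet as their genotype label, and the others are labelled Setd1bKO. Both genotypes received 0.1% ethanol for 16 h with buffer for the last 6 h (vehicle), ethanol for 16 h with 100 ng/ml lipopolysaccharide (LPS) for 6 h, or 1 uM dexamethasone (Dex) for 16 h with LPS for 6 h. RAW264.7 is a macrophage-like line, labelled BALB/c and male, and was used as wild type and as cells labelled Setd1aDel/+, a deletion on 1 of the alleles as the notation reads. In the 16 h experiment these cells received the same treatments as the marrow-derived cells. In the 6 h experiment ethanol or Dex was given for 6 h, and LPS, where used, for 6 h, with a further group given Dex alone. In the IFNB1 experiment the cells received LPS at 100 ng/ml for 6 h, without or with 10 ng/ml interferon beta (IFNB1), and no group went without LPS. The treatment protocol writes the LPS dose per microlitre in places, and the dose per millilitre is that of the sample labels.

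Type I interferon is the cell's alarm signal for infection. In macrophages LPS binds Tlr4, and the adaptor Ticam1 passes the signal to the kinase Tbk1 and the factor Irf3, which switches on Ifnb1. Secreted interferon beta binds its receptor, made of Ifnar1 and Ifnar2, on the same or neighbouring cells, and the kinases Jak1 and Tyk2 then activate a transcription factor complex containing Stat2 and Irf9 that binds the interferon-stimulated response element (ISRE) in the promoters of interferon-stimulated genes. Dex is a synthetic glucocorticoid that activates the glucocorticoid receptor and dampens inflammatory gene expression in macrophages.

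The deposited values of a library summed to between 837032 and 912839 TPM, a length-corrected measure of transcript abundance, and libraries of a group correlated at 0.989 or more across genes. The read number of each library is unknown, so no counting error can be given. Whether the biological replicates of the labels were separate animals or cultures is not said, and p-values then reflect only how much these libraries vary. The labels do not say how many clones the Setd1aDel/+ cells represent. As a check of the labels, Setd1a was lower in Setd1aDel/+ cells than in wild type under LPS in the 16 h experiment (log2 difference -0.70) and in the IFNB1 experiment (-0.56). In the 6 h experiment its difference of -0.46 under LPS did not pass the test. Setd1b was not lower in the libraries labelled Setd1bKO. In vehicle it was 10.1 ± 0.359 TPM against 4.54 ± 0.681 TPM in control (mean ± standard deviation), a called increase of 1.00. A gene-level TPM does not show whether a transcript still encodes a working protein, and the deleted part is not given in the labels. Of 10 macrophage markers, 10 were at 1 TPM or more in every marrow-derived group, and 8 in every RAW264.7 group. Because these are bulk samples, fewer cells of a type and less RNA per cell cannot be told apart.

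Promoter sequences are shown first because the ISRE is the element through which interferon acts on such genes. The stretches below are the 150 bases before the annotated start of 6 members, from RefSeq on GRCm38.p6, written 5′ to 3′ on the gene's strand. By GENCODE vM21 gene models the last bases shown for Lgals9 and Phf11b already belong to the gene, and the others lie upstream of it. Capitals mark the bases that match the ISRE core, GAAANNGAAA, read on either strand, and matches that overlap form 1 run of capitals. They are the promoters of Isg15 on chr4:156200819-156200968, Bst2 on chr8:71537473-71537622, Lgals9 on chr11:78984925-78985074, Trim30a on chr7:104465194-104465343 and Phf11b on chr14:59341331-59341480, all on the minus strand, and of Ddx60 on chr8:61927937-61928086 on the plus strand.
Isg15: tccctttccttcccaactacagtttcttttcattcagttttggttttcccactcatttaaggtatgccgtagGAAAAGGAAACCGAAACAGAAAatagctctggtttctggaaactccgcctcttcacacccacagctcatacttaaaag
Bst2: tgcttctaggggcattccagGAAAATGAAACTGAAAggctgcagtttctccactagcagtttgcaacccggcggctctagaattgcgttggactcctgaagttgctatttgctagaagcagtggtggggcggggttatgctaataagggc
Lgals9: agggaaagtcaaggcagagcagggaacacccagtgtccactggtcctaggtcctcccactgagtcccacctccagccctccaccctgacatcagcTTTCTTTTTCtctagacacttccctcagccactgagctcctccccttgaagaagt
Ddx60: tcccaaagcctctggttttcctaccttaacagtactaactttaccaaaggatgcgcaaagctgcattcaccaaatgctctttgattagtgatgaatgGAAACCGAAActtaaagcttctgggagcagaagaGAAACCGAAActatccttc
Trim30a: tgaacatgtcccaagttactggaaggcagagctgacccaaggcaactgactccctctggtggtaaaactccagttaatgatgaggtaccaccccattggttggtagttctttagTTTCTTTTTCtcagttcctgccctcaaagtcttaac
Phf11b: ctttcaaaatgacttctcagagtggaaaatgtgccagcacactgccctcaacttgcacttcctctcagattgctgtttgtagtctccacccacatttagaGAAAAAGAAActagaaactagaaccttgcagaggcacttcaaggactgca
Isg15 held 3 overlapping matches, Bst2 and Ddx60 held 2 each, and the others held 1 in the bases shown. Over windows from 250 bases before to 50 bases after the start, 34 of the 41 members had an entry. Usp18, Parp9, Parp10, Parp14, Ly6e, Rtp4 and Tor3a had none. The core was found in 9 of the 34 (26.5%), namely Isg15, Trim21, Trim30a, Ddx60, Tdrd7, Bst2, Lgals9, Shisa5 and Phf11b, while 3.99% of 27025 genes in the table held it. Counted by window, 10 of 51 member windows (19.6%) and 3.44% of all 32851 windows held it. The core TTCNNNGAA of the gamma-activated site (GAS), an element known from interferon gamma responses, was in 6 of the 34 (17.6%), namely Isg20, Samhd1, Adar, Bst2, Shisa5 and Ifi35, and in 9.55% of all genes. These are matches of letters in a short window. The median log2 change is given for the members with and without the ISRE core, with no test. For LPS it was 3.56 for the 9 with it and 3.59 for the 25 without it in wild-type RAW264.7 cells at 6 h, and 3.46 for 9 and 2.73 for 24 in control marrow-derived cells. For Setd1aDel/+ against wild type under LPS at 16 h it was -1.26 with and -1.54 without the core, and for IFNB1 in wild-type cells it was 0.85 and 1.08. The order of these medians differed from one comparison to another.

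Differences are given below as log2 differences of TPM + 1, ± the standard error of the fit. A gene is called when its adjusted p is under 0.05 (limma, Benjamini-Hochberg over all genes tested in the comparison). Beside a count of members called in 1 direction in a limma comparison stands the percentage of all tested genes called in that direction. Under LPS the TPM of more genes fell than rose, and a percentage is followed by its value after rescaling each library by the median of ratios, marked scaled, where this moved the split of higher and lower calls by over 10 percentage points. The rescaling moved the median of all genes by 0.49 in the LPS response of control marrow-derived cells, by 0.42 in that of Setd1aDel/+ cells at 16 h and by less in the other comparisons.

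LPS raised these genes almost without exception. In control marrow-derived macrophages 38 of 39 members rose, with a median of 2.78 against -0.49 over all genes, and 20.6% (38.9% scaled) of all genes tested rose. Before LPS the median member stood at 18.3 TPM and Ly6e, a GPI-anchored surface protein, was the highest at 571 TPM. After LPS the median was 175.6 TPM and Isg15 was the highest.

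Isg15 encodes the ubiquitin-like protein that is attached to other proteins during infection. It measured 19.1, 20.0 and 18.1 TPM in control vehicle libraries and 2513, 2431 and 2516 TPM in control LPS libraries, a difference of 6.95 ± 0.065 (adjusted p 2.61e-20). The groups lie far apart, and no library comes near the other group. Usp18, the protease that removes Isg15 and restrains the interferon receptor, rose by 5.70 ± 0.090. Herc6, the mouse Isg15 ligase, rose by 4.10 ± 0.052, Ube2l6, its conjugating enzyme, by 1.97 ± 0.032, and Trim25, a ubiquitin ligase that acts on the RNA sensor RIG-I, by 1.56 ± 0.053. The 5 genes of the Isg15 system thus all rose, Isg15 most and Trim25 least.

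The 5 genes of ADP-ribosylation rose by between 2.41 for Parp10 and 4.25 for Parp14, which both add single ADP-ribose units to proteins. Among nuclear body and TRIM proteins the smallest rise was that of Pml (1.59), the scaffold of nuclear bodies, and the largest that of Trim30a (3.64), a mouse TRIM protein that restrains Toll-like receptor signalling. Among the 9 nucleic acid enzymes, Isg20, a 3′ to 5′ exonuclease that degrades viral RNA, rose most. It measured 1.46, 1.17 and 1.52 TPM in vehicle and 118, 125 and 115 TPM with LPS, a difference of 5.66 ± 0.14. Tdrd7, a tudor domain protein that hinders virus replication, rose least of that group, by 1.39. Ifi44 rose from 1.21, 0.823 and 0.609 TPM to 125, 137 and 125 TPM. It was close to absent at rest, and its rise of 6.12 ± 0.11 was the next largest after that of Isg15. Phf11b, a PHD finger protein, rose by 5.24 and its neighbour Phf11d by 4.50.

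Shisa5, a membrane protein of the endoplasmic reticulum, was the 1 member not called in control cells. It measured 299, 335 and 314 TPM in vehicle and 303, 279 and 302 TPM with LPS, which differ by -0.10 ± 0.084, and the groups overlap. After median-of-ratios scaling its difference was 0.44 and was called. In libraries labelled Setd1bKO 38 of 39 rose (all genes, 24.9% (39.2% scaled)), with a median of 2.86. There Shisa5 was the 1 member that fell, by 0.30 (all genes lower, 58.2% (39.6% scaled)), which turned to 0.10 with scaling.

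**Figure D1:**
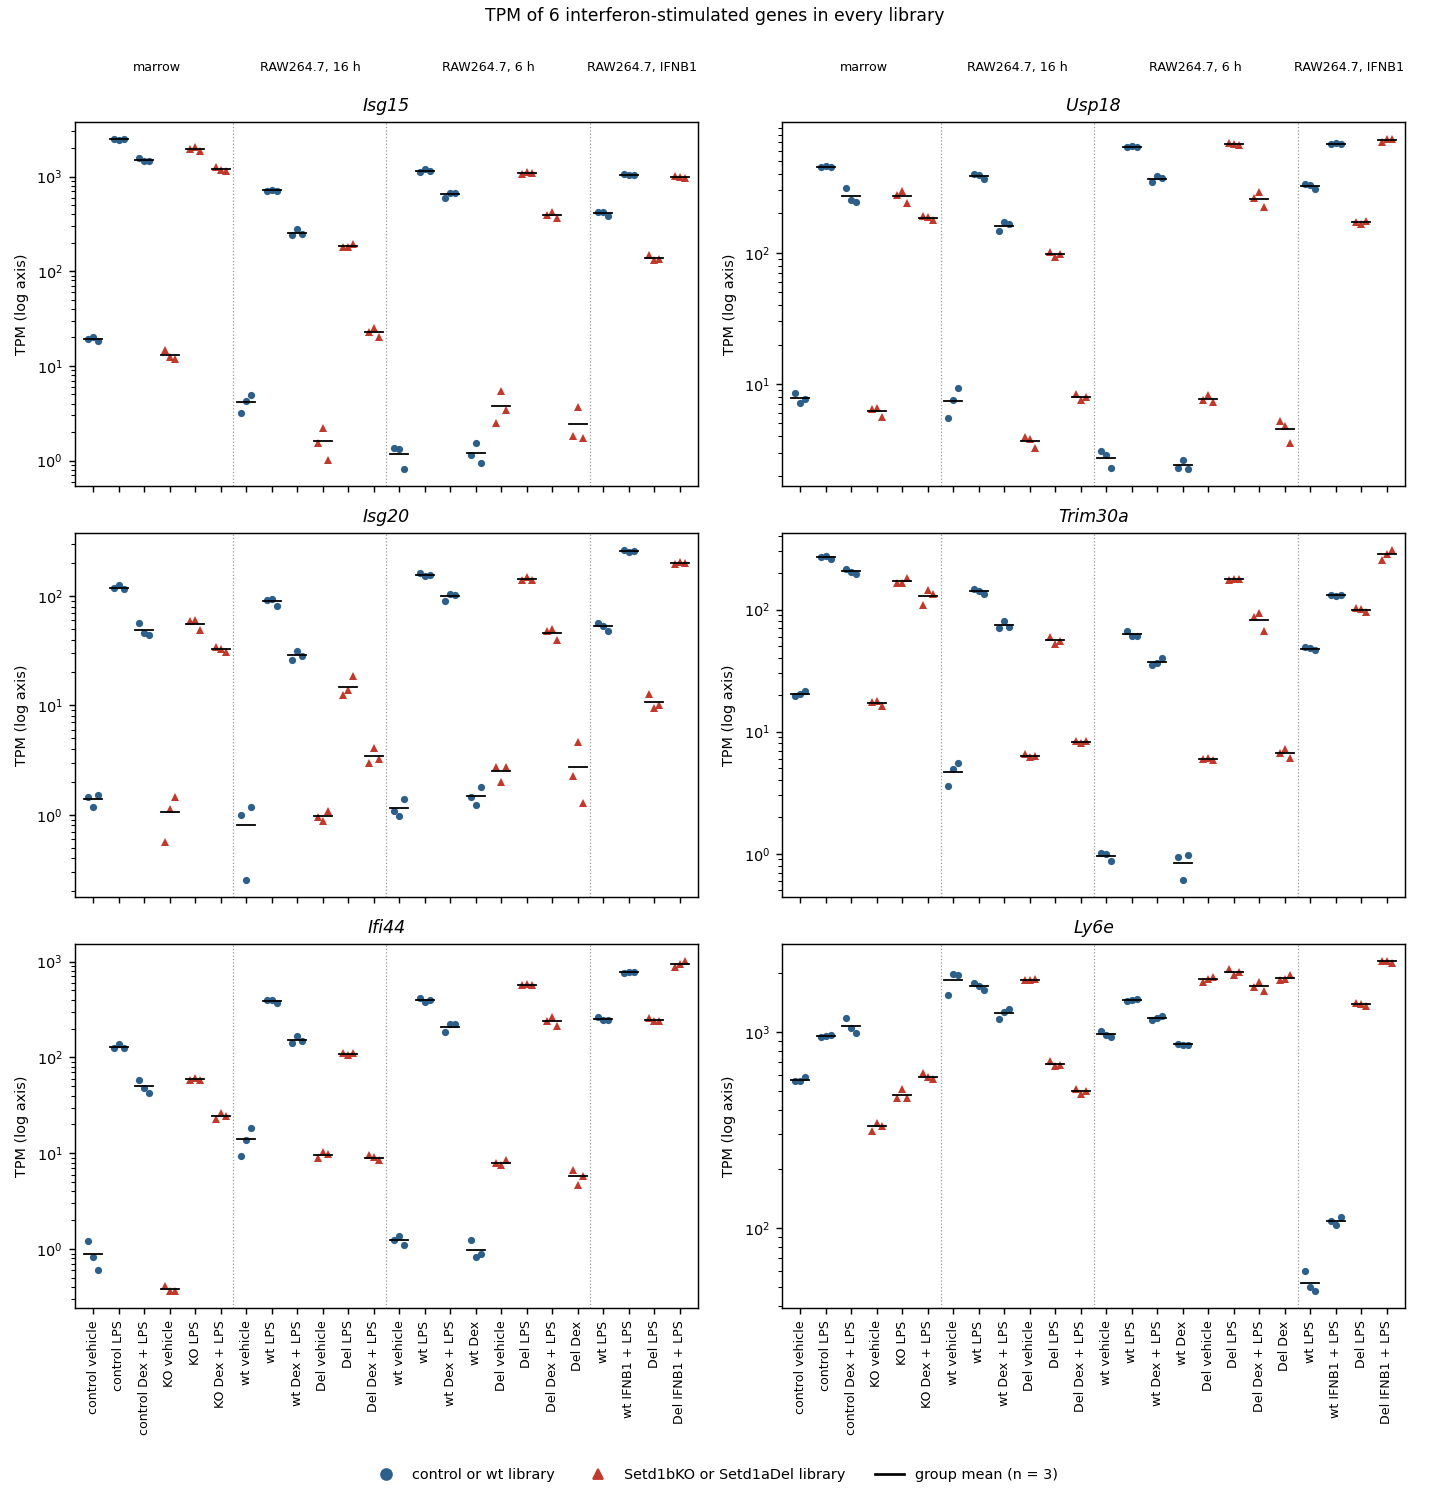
Levels of 6 members (Isg15, Usp18, Isg20, Trim30a, Ifi44 and Ly6e) in all 72 libraries, as TPM on a log axis, with libraries grouped by experiment, genotype and treatment; each point is 1 library and each bar a group mean. Isg15 moves from near 20 TPM in control marrow-derived vehicle libraries to above 2400 TPM with LPS, and wild-type Ly6e is near 50 TPM under LPS in the IFNB1 experiment but above 1400 TPM in the other 2 RAW264.7 experiments.

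In wild-type RAW264.7 cells the response was as broad. At 6 h all 40 listed members rose, with a median of 3.65 (all genes, 19.5% (34.2% scaled) higher). In the 16 h experiment, in which LPS was also present for 6 h, 39 of 40 rose, with a median of 2.44 (all genes, 17.4% (38.8% scaled)). Isg15 measured 1.36, 1.32 and 0.804 TPM in vehicle and 1125, 1189 and 1146 TPM with LPS at 6 h, a rise of 9.07 ± 0.19. Ifi44, Usp18 and Ifi44l followed with 7.48, 7.44 and 7.21. The smallest rise at 6 h was that of Ly6e, from 1014, 962 and 937 TPM to 1438, 1457 and 1471 TPM. Ly6e was already among the most abundant members without LPS.

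In the 16 h experiment wild-type Ly6e was the 1 member not called, at 1547, 1978 and 1958 TPM in vehicle and 1781, 1713 and 1638 TPM with LPS. Its difference of -0.087 ± 0.073 became -0.20 and was called when wild-type vehicle replicate 1 was left out, and turned to 0.33 with median-of-ratios scaling. The other listed surface and secreted proteins rose. Lgals9, a galectin, went up by 4.58, Bst2, the tetherin that holds budding virus on the cell, by 2.26, and Lgals3bp, a secreted glycoprotein, by 2.15. Samhd1, which depletes the nucleotides a virus needs, had the smallest called rise of the nucleic acid enzymes, 0.91.

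The order of the LPS changes across members was alike in the cell types, as a description without a test. Across 39 members the changes in control marrow-derived cells correlated with those of wild-type RAW264.7 cells at 6 h with Pearson's r of 0.818 and Spearman's rho of 0.694. Across 40 members, r between the 16 h and 6 h experiments was 0.939 and rho 0.914. The libraries compared share no sample, but they share the quantification and the tables' gene models, and members with low resting levels give large values in each.

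**Figure D2:**
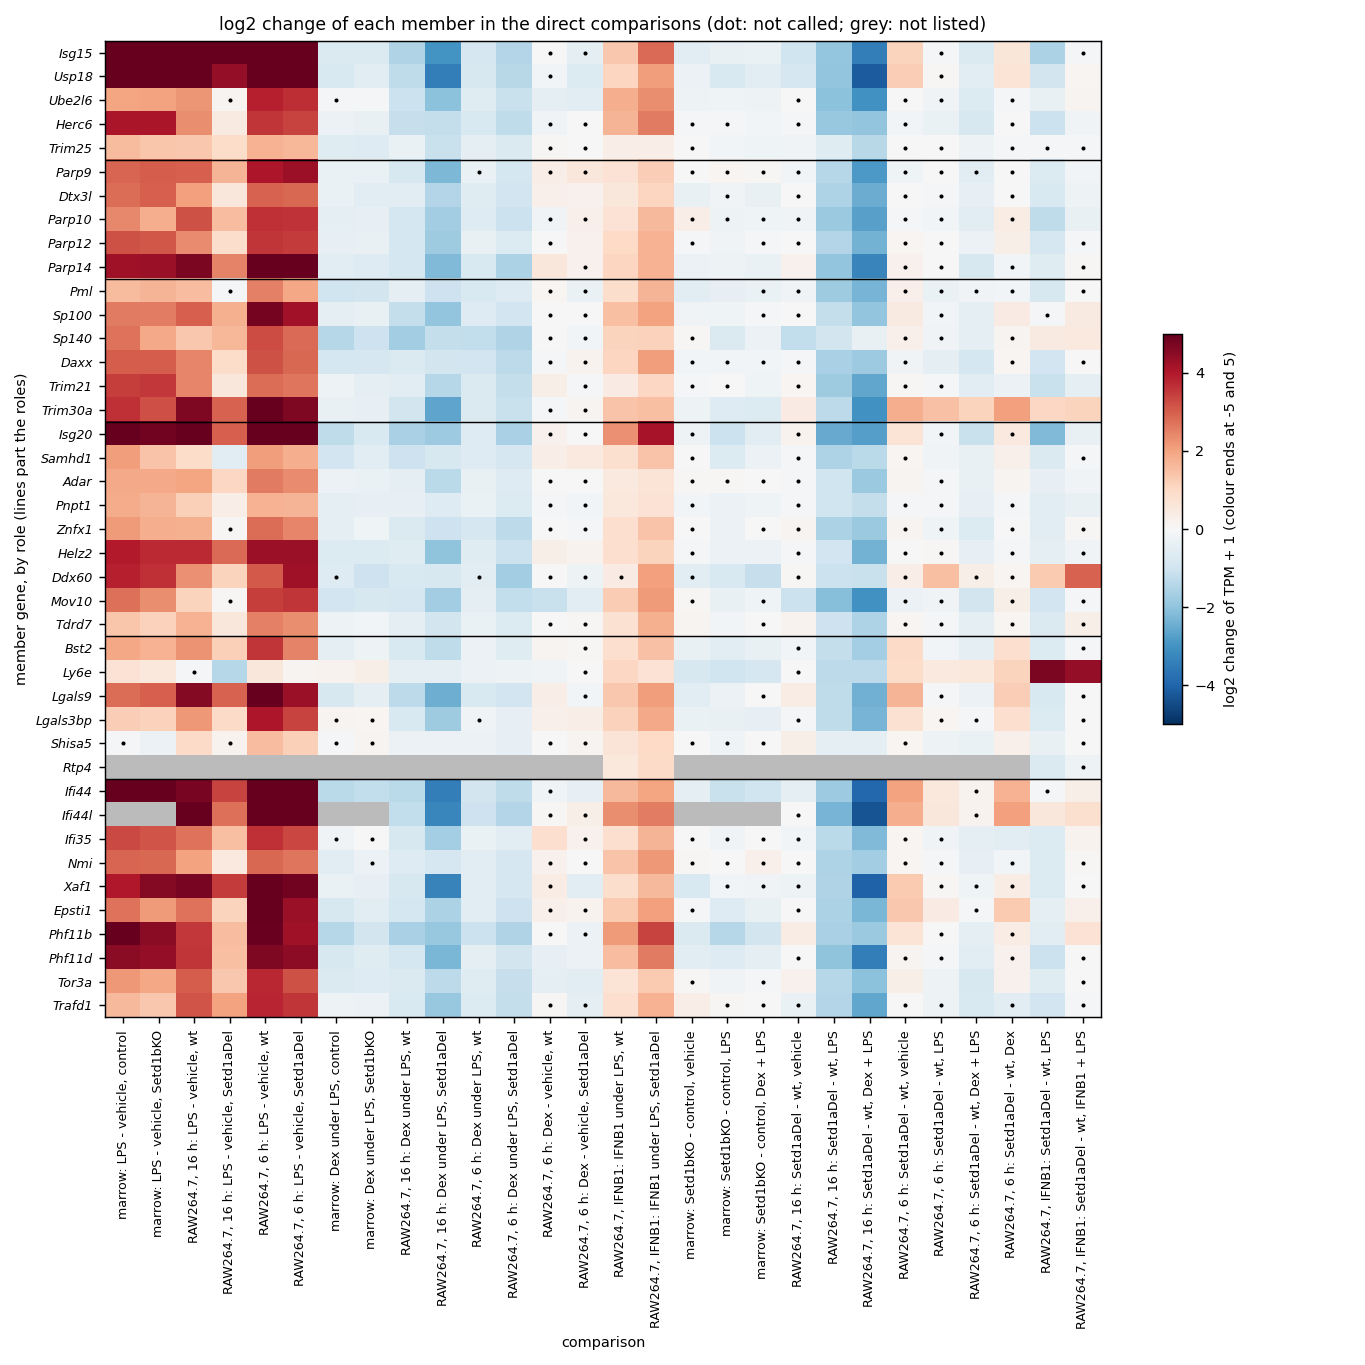
Log2 differences of TPM + 1 for the 41 members (rows, ordered by role) in 28 direct comparisons (columns), red for higher and blue for lower; a dot marks a difference that was not called and grey a member that the table does not list. The LPS columns are red for nearly every member and the columns of Dex plus LPS against LPS are blue, while the columns of Setd1aDel/+ against wild type differ between experiments.

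Dex given with LPS lowered most members in every setting. In control marrow-derived cells 33 of 39 fell (all genes lower, 15.2% (26.8% scaled)), with a median of -0.49 while the median of all genes was 0.18. The 1 member called higher there (all genes, 44.8% (20.6% scaled)) was Ly6e at 0.17, which was 0.16 and 0.10 and not called without control LPS replicate 1 or control Dex plus LPS replicate 1. Its direction turned to -0.047 with median-of-ratios scaling, under which 37 members fell. In libraries labelled Setd1bKO 34 of 39 fell (all genes lower, 13.5% (23.8% scaled)) and Ly6e was again the 1 called higher, by 0.31 (all genes, 39.2% (15.3% scaled)). With scaling it stood at 0.12 and was not called.

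Sp140, a chromatin reader found in nuclear bodies, fell most in control cells. It measured 189, 169.8 and 168 TPM with LPS and 74.1, 57.8 and 61.2 TPM with Dex plus LPS, a difference of -1.44 ± 0.081 (adjusted p 7.96e-10). Every Dex library was below every LPS library. Phf11b (-1.42), Ifi44 (-1.36) and Isg20 (-1.27) followed. Isg15 remained abundant at 1581, 1452 and 1451 TPM with Dex plus LPS, a difference of -0.74 ± 0.065 from LPS. Members that were not called in control cells were Ube2l6 (-0.051), Ddx60 (-0.64), Lgals3bp (0.12), Shisa5 (-0.062) and Ifi35 (-0.18). Without control Dex plus LPS replicate 3 Lgals3bp was called higher at 0.19, and without replicate 1 of that group Ifi35 was called lower at -0.25.

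In wild-type RAW264.7 cells of the 16 h experiment all 40 listed members fell (all genes, 12.3% (23.3% scaled)), with a median of -0.81. Sp140 again fell most, from 88.0, 81.2 and 89.1 TPM to 25.3, 29.7 and 21.8 TPM, a difference of -1.72 ± 0.12. Phf11b (-1.63), Isg20 (-1.61) and Isg15 (-1.49) came next. With 6 h of Dex in place of 16 h, 37 of 40 fell (all genes, 10.6% (13.9% scaled)), with a median of -0.61. Parp9 (-0.33), Ddx60 (-0.52) and Lgals3bp (-0.18) were below their LPS means without passing the test. Ddx60 was called at -0.78 without wild-type Dex plus LPS replicate 3. Sp140 at -1.23 and Phf11b at -1.08 had the largest falls there too. S100a8, a neutrophil marker, was higher with Dex plus LPS than with LPS in these wild-type libraries, at 19.99 to 22.13 against 4.915 to 5.45 TPM at 16 h and 186.6 to 206.3 against 73.35 to 79.86 at 6 h, and its part in the falls was not tested.

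The Dex response at 16 h was compared with that at 6 h in a joint fit of both experiments in wild-type cells. 11 of 40 members fell further at 16 h (all genes more negative, 4.36% (7.55% scaled)), with Lgals3bp at -0.58, Sp100 at -0.55 and Parp12 at -0.53 among them, and Trim25 fell less, by 0.16 (all genes, 9.14% (5.41% scaled)). The count of 12 called members was 7 without replicate 1 of wild-type Dex plus LPS at 16 h. The Trim25 difference lost its call, at values from 0.14 to 0.17, without any of 8 single libraries (replicates 1 and 2 of LPS and of Dex plus LPS at 16 h, and replicates 2 and 3 of LPS and 1 and 3 of Dex plus LPS at 6 h), and was 0.090 with median-of-ratios scaling. The 16 h and 6 h experiments were separate, so experiment and time of Dex cannot be told apart.

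Dex without LPS moved far fewer members. In wild-type cells at 6 h 9 of 40 members were higher and 5 lower, while 12.0% (15.8% scaled) and 24.8% (19.6% scaled) of all genes moved in these directions. In Setd1aDel/+ cells 5 were higher and 7 lower, against 12.0% and 18.3%, shares near the background. Mov10, an RNA helicase that blocks retroelements, had the largest decrease in wild type, from 4.66, 5.30 and 3.90 TPM to 1.78, 1.66 and 1.34 TPM. Ifi35, a partner of Nmi in interferon signalling, had the largest increase, from 28.5, 20.6 and 19.7 TPM to 39.9, 43.1 and 42.7 TPM. Both pairs of groups lie apart, with differences of -1.11 ± 0.13 and 0.86 ± 0.11. Isg15 stood at 1.15, 1.53 and 0.936 TPM with Dex alone, 0.029 from vehicle and not called.

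**Figure D3:**
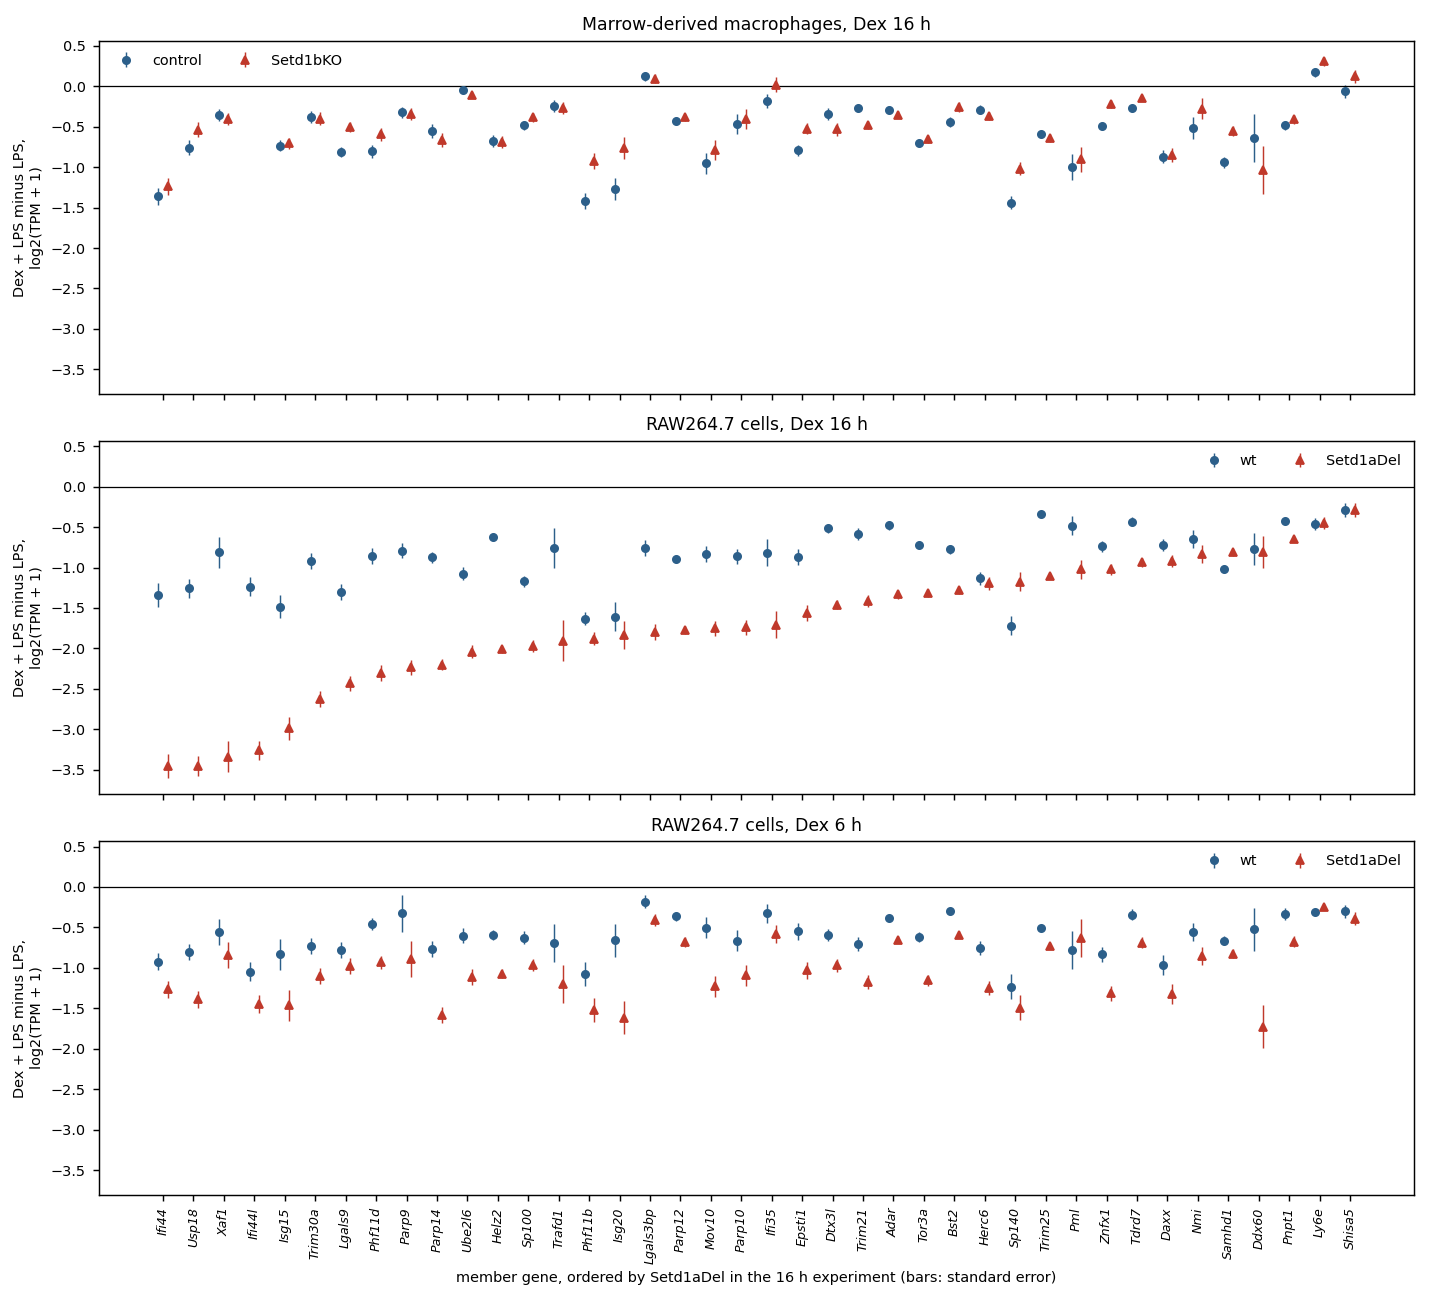
Change with Dex plus LPS against LPS alone for each member (log2 difference of TPM + 1, vertical axis; members along the horizontal axis), by genotype, in marrow-derived macrophages and in RAW264.7 cells at 16 h and 6 h; points are fitted differences and bars their standard errors. Nearly all points lie below 0, and in RAW264.7 cells at 16 h the Setd1aDel/+ points lie below the wild-type points for most members.

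In libraries labelled Setd1bKO many members were modestly lower than in control. Under LPS 27 of 39 were lower and the rest were not called (all genes lower, 12.4% (19.9% scaled)), with a median of -0.28 while the median of all genes was 0.10. In vehicle 16 were lower and 2 higher (all genes, 15.4% and 9.89%), and with Dex plus LPS 22 were lower (all genes, 11.5% (16.5% scaled)). The members higher in vehicle were Trafd1, a zinc finger protein that dampens signalling (0.32), and Tdrd7 (0.12), whose call was lost, at 0.084 to 0.13, without any 1 of the 6 libraries.

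Phf11b differed most under LPS. It measured 204, 216 and 196 TPM in control and 80.3, 81.0 and 67.9 TPM in Setd1bKO libraries, a difference of -1.42 ± 0.095 (adjusted p 9.22e-09). The groups do not overlap, and every control library is far above the Setd1bKO ones. Ifi44 (-1.10), Isg20 (-1.08) and Ly6e (-0.99) were next in size. Ly6e was also lower at rest, at 563, 561 and 588 TPM in control and 312, 344 and 332 TPM in Setd1bKO vehicle. Isg15 (-0.35 ± 0.065) and Usp18 (-0.75 ± 0.090) were lower under LPS too. Members that were not called under LPS included Parp9 (0.088), Trim21 (-0.024), Adar (0.043) and Nmi (0.0067).

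Macrophage markers, taken as a sum, also differed between these genotypes. The summed TPM of the 10 markers was 25470 to 27260 in control and 17650 to 17910 in Setd1bKO libraries under LPS, and 38160 to 39110 and 25070 to 25820 in vehicle. S100a8, the 1 listed marker of the 8 for neutrophils, summed to 147.1 to 155.1 and 154.7 to 180.1 TPM under LPS, and Pdgfrb, the 1 listed of 5 stromal markers, to 8.424 to 9.152 and 4.797 to 5.488. In vehicle S100a8 was at 37.61 to 41.87 TPM in control and 24.17 to 27.17 in Setd1bKO libraries. Pdgfrb was near 0 there, at 0.03306 to 0.04065 and 0.05507 to 0.1239 TPM. Their part in the results was not tested. Ifnb1 itself was not lower under LPS in these libraries: it measured 9.95, 8.11 and 8.48 TPM in control and 14.5, 15.8 and 13.5 TPM in Setd1bKO, a called increase of 0.67 ± 0.23. That call was lost with scaling (0.57), with a pseudocount of 0.1 TPM (0.72), and without control replicate 2 (0.61) or 3 (0.64) or Setd1bKO replicate 1 (0.67) or 2 (0.61).

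The LPS response itself was smaller in Setd1bKO libraries for 12 of 39 members and larger for Xaf1 alone among the members called (all genes, 5.43% (10.2% scaled) smaller and 16.4% (8.55% scaled) larger). With median-of-ratios scaling 20 were smaller and 1 larger. Isg20 rose by 5.66 in control and 4.81 in Setd1bKO, a difference of -0.85 ± 0.19 that was -0.66 and not called with a pseudocount of 0.1 TPM. Xaf1, an antagonist of the apoptosis inhibitor XIAP, rose by 4.0 and 4.61, a difference of 0.61 ± 0.11, after a lower start in Setd1bKO vehicle. The Dex response differed for 4 members, Phf11b, Sp140, Samhd1 and Znfx1, which all fell less in Setd1bKO libraries (all genes, 2.69% (3.53% scaled)). This count was 1 without control LPS replicate 1 or 2, 2 without control LPS replicate 3 or Setd1bKO LPS replicate 1, and 1 without Setd1bKO Dex plus LPS replicate 2 or 3. No member was called by limma without control Dex plus LPS replicate 2 or 3 or Setd1bKO LPS replicate 3.

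In the 16 h experiment Setd1aDel/+ cells under LPS had less of every listed member than wild type. All 40 were called lower (all genes, 42.4% (29.9% scaled)), with a median of -1.53 against -0.11 over all genes. In each the 3 Setd1aDel/+ libraries were below the 3 wild-type ones. Of all 8964 genes tested, 5590 had groups that lay apart in either direction. The range ran from -2.53 for Isg20 to -0.48 for Shisa5. Isg20 measured 92.8, 93.2 and 81.7 TPM in wild type and 12.4, 13.7 and 18.4 TPM in Setd1aDel/+ cells. Isg15 measured 709, 725 and 708 TPM and 182, 183 and 192 TPM, a difference of -1.94 ± 0.14 (adjusted p 1.31e-08). Both genes were still clearly induced in Setd1aDel/+ cells, to a lower level.

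By role, the 5 Isg15 system genes had a median difference of -1.94, with Ube2l6 at -2.05 and Trim25 at -0.62. The median was -1.54 for the ADP-ribosylation genes and -1.56 for the cytosolic proteins, led by Ifi44l at -2.31 ± 0.12. Mov10 was lower under LPS (-2.13) and already in vehicle (-1.07). In vehicle 7 members were higher and 6 lower (all genes, 15.3% (22% scaled) and 32.9% (21% scaled)), or 8 and 4 with scaling, and these shares are near or below the background. Isg15 (-1.0), Usp18 (-0.83) and Sp140 (-1.24) were among those lower at rest, and Trim30a (0.39), Phf11b (0.39) and Lgals9 (0.38) among those higher.

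The LPS response of Setd1aDel/+ cells at 16 h was smaller for 39 of 40 members (all genes, 20.3%), with a median difference of -1.42. Sp140 was the exception, with a difference of 0.32 ± 0.16 that was not called, and that was called at 0.43 when Setd1aDel/+ vehicle replicate 2 was left out. Within Setd1aDel/+ cells 33 of 40 members still rose with LPS (all genes, 18.4% (40.6% scaled)), and 2 fell (all genes, 66.4% (39.8% scaled)). The 2 that fell were Ly6e, from 1843, 1829.9 and 1867 TPM to 706, 667 and 677 TPM, and Samhd1 (-0.57). Ube2l6, Pml, Znfx1, Mov10 and Shisa5 were not called, and with median-of-ratios scaling Pml turned from -0.084 to 0.35.

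The summed TPM of the macrophage markers differed strongly between these cells, and a sum does not show which of its genes differed. The 8 listed markers summed to 2935 to 3396 TPM in wild-type and 23400 to 24520 in Setd1aDel/+ vehicle libraries, and to 4903 to 5256 and 11630 to 13380 under LPS. S100a8 was at 4.915 to 5.45 TPM in wild-type and 98.46 to 106.3 in Setd1aDel/+ LPS libraries. Their part in the genotype differences was not tested.

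Dex plus LPS widened the gap at 16 h. All 40 listed members were lower in Setd1aDel/+ cells (all genes, 47.6% (30.1% scaled)), with a median of -2.32, and all 40 fell with Dex in those cells (all genes, 14.9% (21.6% scaled)), with a median of -1.72. The median fall in wild type was -0.81. Xaf1 measured 106, 103 and 93.7 TPM in wild-type and 5.53, 5.15 and 4.73 TPM in Setd1aDel/+ libraries with Dex plus LPS. Its Setd1aDel/+ libraries were back near the vehicle level of 4.30, 5.64 and 3.89 TPM.

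The fall with Dex was larger in Setd1aDel/+ than in wild-type cells for 28 of 40 members and smaller for 1 (all genes, 7.68% (5.3% scaled) and 2.88% (5.71% scaled)). Xaf1 differed by -2.53 ± 0.27, Usp18 by -2.20 ± 0.17, Ifi44 by -2.12 ± 0.21 and Isg15 by -1.5 ± 0.20. The exception with a smaller fall was Sp140, with changes of -1.17 in Setd1aDel/+ and -1.72 in wild-type cells. Its difference of 0.55 lost its call, at values from 0.44 to 0.59, without 10 of the 12 libraries in turn, that is without any but wild-type Dex plus LPS replicate 2 and Setd1aDel/+ Dex plus LPS replicate 2. Members whose Dex fall was not called as different included Herc6 (-0.062), Isg20 (-0.22), Ddx60 (-0.041) and Ly6e (0.0054).

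At 6 h the picture differed. In vehicle 16 of 40 members were higher in Setd1aDel/+ than in wild-type cells and the other 24 were not called (all genes higher, 6.58% (10.9% scaled)). Ifi44 measured 1.23, 1.38 and 1.12 TPM in wild-type and 7.85, 7.50 and 8.55 TPM in Setd1aDel/+ vehicle libraries, a difference of 2.00 ± 0.10. Trim30a measured 1.02, 0.995 and 0.871 TPM and 5.92, 6.07 and 5.83 TPM. For both genes the Setd1aDel/+ libraries are all well above the wild-type ones. Ifi44l (1.83), Lgals9 (1.72), Epsti1 (1.35), Xaf1 (1.29), Usp18 (1.22), Isg15 (1.11), Bst2 (0.94) and Ly6e (0.93) were also higher. None of the 5 ADP-ribosylation genes was called in either direction at rest (limma, adjusted p). With Dex alone 16 were higher and 2 lower (all genes, 6.2% (8.22% scaled) and 7.37% (5.04% scaled)), the latter being Ifi35 (-0.54) and Trim21 (-0.29). The Trim21 call was lost, at -0.29 to -0.23, without replicate 2 or 3 of wild-type Dex or replicate 1 or 3 of Setd1aDel/+ Dex.

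Under LPS at 6 h 6 members were higher and 6 lower in Setd1aDel/+ cells (all genes, 9.19% (12.2% scaled) and 12.3% (10.7% scaled)), or 6 and 4 with median-of-ratios scaling. The shares were close to those of all genes. Trim30a was higher, at 66.9, 60.5 and 60.6 TPM in wild type and 176, 177 and 177 TPM in Setd1aDel/+ cells, a difference of 1.48 ± 0.10. Ddx60, a helicase that promotes RNA sensing, was higher by 1.5 ± 0.27, Ifi44l by 0.58, Ifi44 by 0.53, Ly6e by 0.47 and Epsti1 by 0.40. Daxx, a histone chaperone of nuclear bodies, was lower (-0.50), as was Tor3a, a torsin-family ATPase (-0.26). Isg15 measured 1125, 1189 and 1146 TPM in wild type and 1066, 1115 and 1092 TPM in Setd1aDel/+ cells, a difference of -0.080 ± 0.19 that was not called.

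All 40 listed members rose with LPS in Setd1aDel/+ cells at 6 h (all genes, 20.4% (33% scaled)), with a median of 3.52. The rise was smaller than in wild type for 14 of 40 (all genes, 2.63% (3.64% scaled)). Lgals9 (-1.80 ± 0.14), Ifi44 (-1.47 ± 0.15), Ifi44l (-1.26 ± 0.17) and Xaf1 (-1.24 ± 0.23) had the largest such differences. These 4 genes also stood higher in Setd1aDel/+ vehicle libraries. Under LPS Ifi44 and Ifi44l were higher as well, while the differences of Lgals9 (-0.082) and Xaf1 (0.051) were not called. Macrophage markers summed to 9669 to 9984 TPM in wild-type and 12030 to 12870 in Setd1aDel/+ vehicle libraries, and to 8329 to 8484 and 7433 to 7900 under LPS. S100a8, the 1 listed neutrophil marker, was lower in Setd1aDel/+ cells here, at 5.285 to 6.281 against 2.739 to 4.286 TPM in vehicle, 73.35 to 79.86 against 46.17 to 53.96 under LPS and 186.6 to 206.3 against 130.2 to 139.1 with Dex plus LPS, the opposite order to that at 16 h under LPS. The groups did not overlap in these 3 treatments. The part of these markers in the differences was not tested.

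With Dex plus LPS at 6 h, by contrast, 30 of 40 members were lower in Setd1aDel/+ cells and 2 higher (all genes, 13.1% and 13.1%), with a median of -0.44. The higher ones were Trim30a (1.10) and Ly6e (0.54). Isg20 differed most, at 90.7, 105 and 101 TPM in wild-type and 47.9, 49.9 and 40.0 TPM in Setd1aDel/+ libraries, a difference of -1.09 ± 0.20. Mov10 (-0.91), Daxx (-0.86), Herc6 (-0.81), Tor3a (-0.80) and Parp14 (-0.79) followed.

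Within Setd1aDel/+ cells all 40 listed members fell with Dex under LPS at 6 h (all genes, 10.7% (15.8% scaled)), with a median of -1.05. The fall was larger than in wild type for 15 of 40 (all genes, 2.04% (2.64% scaled)), with Parp14 at -0.81 ± 0.14, Tor3a at -0.53 ± 0.091 and Helz2, a helicase, at -0.48 ± 0.080. This count of 15 was 7 without wild-type LPS replicate 3 and 7 without wild-type Dex plus LPS replicate 2. It was 6 without Setd1aDel/+ LPS replicate 2 and 9 without Setd1aDel/+ Dex plus LPS replicate 3.

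The difference between the experiments was tested for LPS in the joint fit. The Setd1aDel/+ minus wild-type difference under LPS was more negative in the 16 h than in the 6 h experiment for 39 of 40 members (all genes, 27.8% (20.5% scaled)), with a median of -1.47. Ifi44l (-2.88 ± 0.17), Trim30a (-2.81 ± 0.14) and Ddx60 (-2.58 ± 0.35) differed most, and Shisa5 at -0.24 ± 0.12 was not called. Both experiments had LPS for 6 h, and differed in the time with ethanol and in every library, so these cannot be told apart. Across 40 members the genotype differences of the 2 experiments correlated with r of 0.0614 and rho of 0.0418, a description over libraries that share no sample.

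**Figure D4:**
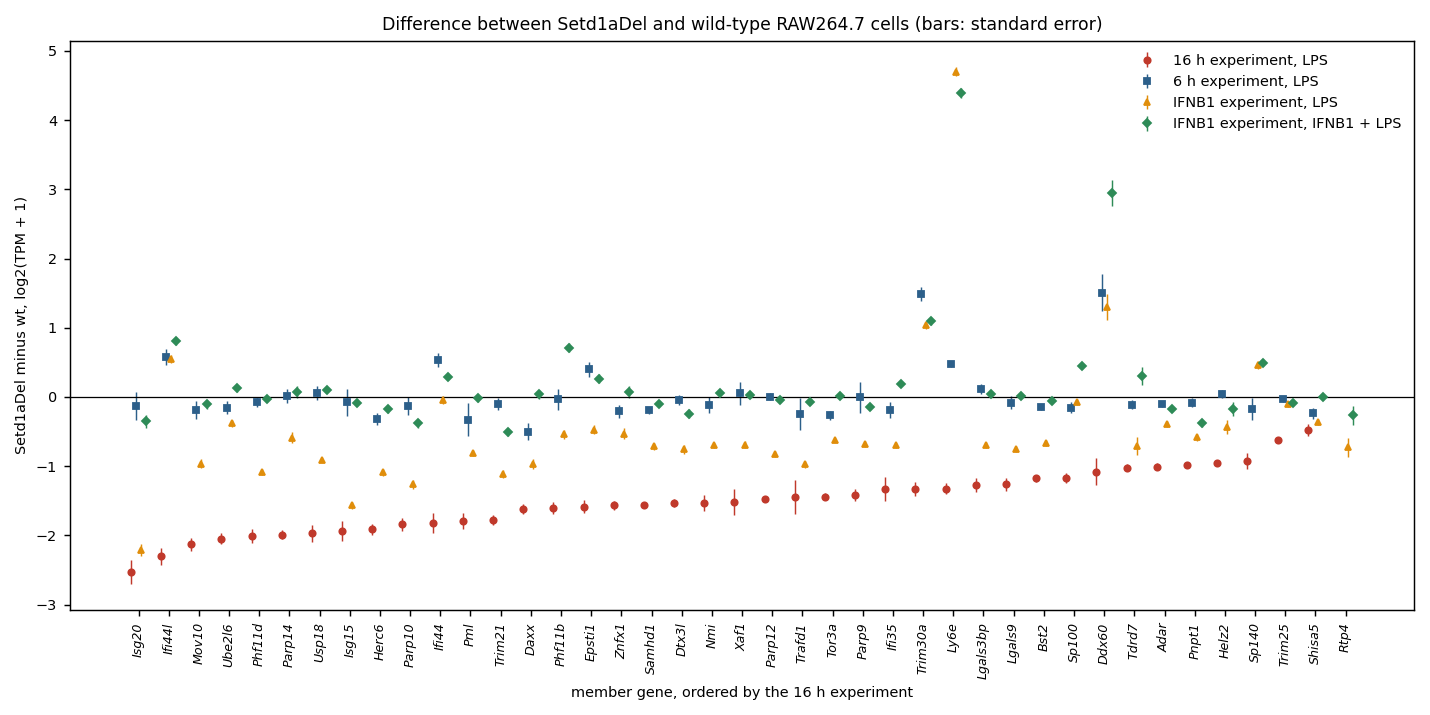
Setd1aDel/+ minus wild-type difference for each member (log2 difference of TPM + 1, vertical axis) under LPS in the 16 h, 6 h and IFNB1 experiments and under IFNB1 plus LPS; points are fitted differences and bars their standard errors. The 16 h points all lie below 0, the 6 h points cluster near 0, and under IFNB1 plus LPS the points move back towards 0 apart from Ly6e, Ddx60 and a few others above it.

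The IFNB1 experiment added interferon beta on top of LPS in both genotypes. In wild-type cells 40 of 41 members rose further with IFNB1 (all genes, 9.5% (14.7% scaled)), with a median of 0.98. Ddx60 was listed at 0, 0 and 0 TPM with LPS and at 0.800, 0.100 and 0.20 TPM with IFNB1 plus LPS, and was not called. Ifi44l rose most, from 63.6, 61.6 and 54.5 TPM to 294, 299 and 314 TPM, a difference of 2.32 ± 0.055. Isg20 (2.27), Phf11b (2.13) and Ube2l6 (1.80) were next, and Trim25 rose least, by 0.31 ± 0.040.

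In Setd1aDel/+ cells all 41 members rose with IFNB1 (all genes, 10.5% (22% scaled)), with a median of 1.72. Isg20 rose most, from 12.6, 9.40 and 10.0 TPM to 197, 206 and 200.2 TPM, a difference of 4.12 ± 0.089. The rise was larger than in wild type for 33 of 41 members and the other 8 were not called (all genes larger, 3.31% (5.66% scaled)). Ddx60, with the limit of the filter given at the start, is among the 33. For most members the rise in Setd1aDel/+ cells started from lower levels under LPS, as given below. Mean Isg15 went from 138.2 to 989.9 TPM in Setd1aDel/+ cells and from 411 to 1050 TPM in wild type. Isg20 (1.85 ± 0.13), Isg15 (1.48 ± 0.069) and Phf11b (1.25 ± 0.091) were among the largest differences in the rise. Trim25 (0.019), Sp140 (0.038), Trim30a (0.061) and Ifi44l (0.25) were among those not called. Ifi44l was called at 0.32 without wild-type LPS replicate 3.

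Under LPS alone 33 of 41 members were lower in Setd1aDel/+ than in wild-type cells and 5 were higher (all genes, 24.9% and 17.7%), with a median of -0.69. Isg20 was again lowest relative to wild type, -2.21 ± 0.089, with 56.7, 53.7 and 47.7 TPM in wild-type libraries and the Setd1aDel/+ values given above. Isg15 measured 427, 419 and 387 TPM and 149, 131 and 135 TPM, a difference of -1.57 ± 0.049. The Setd1aDel/+ libraries of both genes were all below the wild-type ones. Parp10 (-1.26), Trim21 (-1.11), Herc6 (-1.09) and Phf11d (-1.08) were also among the lower ones, and Rtp4, a receptor transporter protein listed in this table alone, was lower too (-0.72).

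The 5 higher members were Ly6e, Ddx60, Trim30a (1.04), Ifi44l (0.55) and Sp140 (0.46). Ly6e measured 60.0, 49.6 and 47.4 TPM in wild-type and 1407, 1389 and 1346 TPM in Setd1aDel/+ libraries, a difference of 4.70 ± 0.071 (adjusted p 3.42e-12). Wild-type Ly6e under LPS stood at 1455 TPM in the 6 h and 1711 TPM in the 16 h experiment. Ddx60 was listed at 0 TPM in each wild-type LPS library and at 1.80, 1.30 and 1.30 TPM in the Setd1aDel/+ ones. It passed the filter on low values only through the Setd1aDel/+ groups, so its call as higher is no support for a genotype difference. The wild-type LPS libraries of the IFNB1 experiment stand apart from the other wild-type LPS libraries in Ly6e and in Ddx60. In those others no listed member had a mean under 7.768 TPM at 6 h or 4.212 TPM at 16 h. The Setd1aDel/+ Ly6e level of 1381 TPM lies between the Setd1aDel/+ levels of 683 TPM at 16 h and 2018 TPM at 6 h. The tables were normalized separately, so levels across them are set side by side and not tested.

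With IFNB1 plus LPS the genotypes were closer. 12 members were higher and 8 lower in Setd1aDel/+ cells (all genes, 15.8% (23.9% scaled) and 38.4% (21.8% scaled)), or 23 and 3 with median-of-ratios scaling, and the median was 0.010 while that of all genes was -0.14. Isg15 measured 1074, 1041 and 1035 TPM in wild-type and 1012, 997 and 961 TPM in Setd1aDel/+ libraries, a difference of -0.085 ± 0.049 that was not called. Ly6e (4.39), Ddx60 (2.95), Trim30a (1.10), Ifi44l (0.81) and Phf11b (0.71) were higher, and Trim21 (-0.50), Parp10 (-0.38) and Pnpt1, a mitochondrial RNA exonuclease (-0.38), lower. The Ddx60 value has the limit of the filter given above.

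Set against wild-type cells with LPS alone, Setd1aDel/+ cells with IFNB1 plus LPS had 39 of 41 members higher (all genes, 16.9% (28.9% scaled)), with a median of 1.11. Trim21, a cytosolic antibody receptor (-0.091, which turned to 0.13 and was called with scaling), and Rtp4 (0.25) were not called. Rtp4 was called at 0.36 without Setd1aDel/+ IFNB1 plus LPS replicate 3. These comparisons share libraries with those above and are no separate evidence. Macrophage markers summed to 7092 to 7199 TPM in wild-type and 11050 to 11240 in Setd1aDel/+ LPS libraries, and to 6392 to 6425 and 8802 to 8896 with IFNB1. The 4 listed neutrophil markers of 8 summed to 1 to 1.2 TPM in wild-type and 4.8 to 6.5 in Setd1aDel/+ LPS libraries, and to 1 to 2.5 and 8 to 11.5 with IFNB1. S100a8 made up nearly all of these sums: Mpo, Elane and Camp were at 0 in every wild-type library, and Elane was at 0 in the Setd1aDel/+ libraries too. Listed markers of dendritic, lymphoid, stromal and erythroid cells summed to at most 2.2 TPM per class. The part of the macrophage and neutrophil markers in the differences was not tested.

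Set side by side, the Setd1aDel/+ difference under LPS took several forms across the 16 h, 6 h and IFNB1 experiments. Of all genes 42.4% (29.9% scaled) were lower at 16 h. At 6 h 12.3% were lower and 9.19% higher, and in the IFNB1 experiment 24.9% and 17.7%. The share of all genes with each joint pattern is not given, so the counts below do not show how particular the patterns are to the members. Of the 40 members tested in all of them, 25 were lower at 16 h and in the IFNB1 experiment and not called at 6 h, Isg15, Usp18, Ube2l6 and the ADP-ribosylation genes among them. Another 6 were lower in each experiment, namely Herc6, Daxx, Samhd1, Bst2, Shisa5 and Tor3a. With median-of-ratios scaling only 4 members were called lower at 6 h. At 6 h Herc6 (-0.28) and Samhd1 (-0.16) lost their call without wild-type LPS replicate 1, Bst2 (-0.15 to -0.14) without replicate 2 or 3 of LPS in either genotype, and Shisa5 (-0.25 to -0.20) without any 1 library but wild-type LPS replicate 3. The 4 genes Trim30a, Ddx60, Ly6e and Ifi44l were lower at 16 h and higher in the other 2 experiments. For Ly6e and Ddx60 the higher call in the IFNB1 experiment rests on wild-type libraries with unusually low levels, as given above. Epsti1 was lower, higher and lower in that order, Ifi44 lower, higher and not called, Sp140 lower, not called and higher, and Trim25 and Sp100 were lower at 16 h alone among the calls. Across 40 members the differences of the 16 h and IFNB1 experiments correlated with r of 0.314 and rho of 0.487, and those of the 6 h and IFNB1 experiments with r of 0.565 and rho of 0.397, described over libraries that share no sample. Both r values include the Ly6e difference of 4.70 in the IFNB1 experiment.

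The pathway that feeds these genes was read from a list of 18 genes, of which 16, 15 and 18 were listed in the marrow-derived, the 16 h and 6 h and the IFNB1 tables. LPS raised 10 and lowered 4 of the 16 in control marrow-derived cells (all genes, 20.6% (38.9% scaled) higher and 64.7% (38.9% scaled) lower). It raised 9 and lowered 5 of 15 in wild-type RAW264.7 cells at 6 h (all genes, 19.5% (34.2% scaled) and 52.3% (33.8% scaled)), and 9 and 4 of 15 in the 16 h experiment (all genes, 17.4% (38.8% scaled) and 66.1% (38.2% scaled)). Irf7, the factor that amplifies interferon production, rose most at 6 h in wild type, from 1.92, 1.23 and 1.89 TPM to 557, 565 and 569.7 TPM, and Tlr4, the LPS receptor, fell by 1.06. Stat2 rose by 3.79.

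In Setd1aDel/+ cells under LPS at 16 h 8 of the 15 were lower and 2 higher (all genes, 42.4% (29.9% scaled) and 17.5% (26.7% scaled)). Irf1, a factor that binds ISRE-like elements, measured 41.1, 36.2 and 45.2 TPM in wild type and 5.19, 6.57 and 6.45 TPM in Setd1aDel/+ cells, a difference of -2.56 ± 0.18. Stat2 (-1.74) and Irf7 (-1.68) were lower too, while Tlr4 was higher by 1.47 and Ifnar1 by 0.24. At 6 h 3 were lower and 1 higher of the 15 under LPS, shares near those of all genes (12.3% (10.7% scaled) and 9.19% (12.2% scaled)). Stat2 was among the lower, at -0.54. In vehicle at 6 h Irf7 was higher in Setd1aDel/+ cells, at 13.8, 15.2 and 15.0 TPM against 1.92, 1.23 and 1.89 TPM, a difference of 2.55 ± 0.091.

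Ifnb1 is listed in the marrow-derived and IFNB1 tables. In the IFNB1 experiment it measured 12.8, 12.4 and 11.7 TPM in wild-type and 1.80, 1.30 and 1.30 TPM in Setd1aDel/+ LPS libraries, a difference of -2.44 ± 0.16. With IFNB1 plus LPS it measured 20.8, 23.6 and 27.5 TPM and 2.70, 4.0 and 2.10 TPM. Setd1aDel/+ cells had less Ifnb1 in both treatments. Irf1 (-1.96) and Irf7 (-1.08) were lower under LPS, among 8 lower and 4 higher of 17 tested (all genes, 24.9% and 17.7%). IFNB1 raised 11 and lowered 3 of the 17 in wild type (all genes, 9.5% (14.7% scaled) and 23.5% (12.4% scaled)), with Irf7 at 1.38, Stat2 at 1.09 and Socs1, a feedback inhibitor of the kinases, at 0.75. The call of Socs1 was lost with a pseudocount of 0.1 TPM (1.13). In Setd1bKO marrow-derived cells Dex lowered Ifnb1 under LPS, from 14.5, 15.8 and 13.5 TPM to 1.93, 1.81 and 0.862 TPM, a change of -2.65. In control cells it measured 9.95, 8.11 and 8.48 TPM with LPS and 2.88, 6.92 and 7.75 TPM with Dex plus LPS, a called change of -0.61 that rested largely on Dex plus LPS replicate 1, the lowest library: without it the change was -0.24 and was not called (adjusted p 0.193). That call was also lost without control LPS replicate 1 (-0.53) or replicate 3 (-0.63), with a pseudocount of 0.1 TPM (-0.70) and in a fit of the compared groups alone (-0.61). The Dex responses of the genotypes differed by -2.04 ± 0.32, a call that every alternative run kept.

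The authors' deposited tables give their own log2 fold changes and adjusted p-values for Dex plus LPS over LPS and for IFNB1 plus LPS over LPS. In the authors' deposited table, at an adjusted p under 0.05, 40 of 40 members were lower with Dex at 16 h in wild type (median -0.96) and 40 of 40 in Setd1aDel/+ cells (median -1.92). For 6 h, the authors' deposited table has 38 lower in wild type (median -0.66) and 40 in Setd1aDel/+ cells (median -1.13). For marrow-derived cells it has 36 of 39 lower in control (median -0.71) and 35 in Setd1bKO libraries (median -0.67), with Ly6e at -0.044 and 0.13. In the authors' deposited table for IFNB1, all 41 were higher in wild type (median 1.15) and in Setd1aDel/+ cells (median 1.94). The authors' gene counts were not analysed here. The share of all genes called in the authors' statistics is not given either, so these member counts have no background beside them.

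Some members have near relatives or neighbours whose reads can be hard to tell apart, and their values are less certain. Sp100 and Sp140 lie on chromosome 1 with a gap of 4951 bases, Ifi44 and Ifi44l on chromosome 3 with a gap of 8777 bases, and Phf11b and Phf11d on chromosome 14 with a gap of 6056 bases (GENCODE vM21 on GRCm38). Trim30a belongs to a cluster of similar Trim30 genes. Parp9 and Dtx3l, whose proteins form a complex, lie on opposite strands of chromosome 16 and overlap by 682 bases, and no source used here says whether the quantification used strand.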

How the data were processed

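Values of 41 member genes were read from 3 deposited tables covering 72 RNA-seq libraries. RNA was selected for polyadenylation and sequenced after a stranded kit, per the labels' protocols. The deposited values are TPM per gene, made by the authors; Salmon 0.10.2, R 3.6.0, DESeq2 and the builds GRCm38.p6 and mm10 are listed, with no role or order, per the submitters' processing notes. The header of the IFNB1 table does not name its unit, and TPM was taken from the column sums. The deposited log2 fold changes and the p-values with them are the authors' own and appear only where the authors' deposited table is named. The score columns deposited by the authors, mean normalized counts and standard errors per the file headers, were not used. Read depth and the annotation release are not given in the sources used here, so no counting error can be stated.

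Differences were fitted here with limma 3.58.1 in R 4.3.3 on log2(TPM + 1), which understates changes of low genes, with trend, 1 mean per group and 1 fit per experiment. Genes needed 1 TPM in 3 libraries, which left 9159, 8964, 8981 and 10923 genes. P-values were adjusted by Benjamini-Hochberg over all genes of a comparison and called under 0.05. The comparison of the 16 h and 6 h experiments used 1 joint fit. The fit was tested on simulated data. The members, their role groups and the pathway and marker lists were chosen with earlier results of these data known. Any member could be named; the text takes members by role and gives those with the largest, smallest, opposite or uncalled changes. Other genes come from the pathway and marker lists or are Setd1a and Setd1b, and 1 gene of the pathway list is counted but not reported by name here. Promoter windows come from RefSeq on GRCm38.p6, and gene positions from GENCODE vM21. Alternatives were a pseudocount of 0.1 TPM, no filter, median-of-ratios scaling, a fit of the compared groups alone, a replicate block, and leaving out each library. They were applied to the pathway genes too, a choice made after seeing the data. Replicate numbers were not treated as pairs.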

Additional observations from a re-analysis of the deposited data

Results flagged for a closer look

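Each item below drew attention because the change in 1 group differed from that in another by a test of the difference itself (limma, adjusted p under 0.05 over all genes). Groups of 3 are too small for a check of single outlying libraries. All counts are of members, and the 3 called members with the largest difference are named for each comparison.

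In marrow-derived cells the LPS response differed between Setd1bKO and control libraries for 13 of 39 members. It was smaller for 12 (all genes, 5.43% (10.2% scaled)) and larger for Xaf1 (all genes, 16.4% (8.55% scaled)). The largest differences were those of Isg20 (-0.85), Sp140 (-0.80) and Phf11b (-0.71). The Dex response under LPS differed for 4, all with a smaller fall in Setd1bKO libraries (all genes, 2.69% (3.53% scaled)). They were led by Phf11b (0.50), Sp140 (0.42) and Samhd1 (0.39). This count fell to 2 or fewer without any of 9 of the 12 libraries, which the report names.

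In RAW264.7 cells of the 16 h experiment the LPS response differed between Setd1aDel/+ and wild type for 39 of 40 members. All 39 were smaller in Setd1aDel/+ cells (all genes, 20.3%), led by Isg20 (-2.69), Ifi44l (-2.31) and Parp14 (-2.21). The Dex response differed for 29, led by Xaf1 (-2.53), Usp18 (-2.20) and Ifi44 (-2.12). The fall was larger in Setd1aDel/+ cells for 28 (all genes, 7.68% (5.3% scaled)) and smaller for Sp140 (all genes, 2.88% (5.71% scaled)). In the 6 h experiment the LPS response differed for 14, all smaller in Setd1aDel/+ cells (all genes, 2.63% (3.64% scaled)). They were led by Lgals9 (-1.80), Ifi44 (-1.47) and Ifi44l (-1.26). The Dex response at 6 h differed for 15, all with a larger fall in Setd1aDel/+ cells (all genes, 2.04% (2.64% scaled)). They were led by Parp14 (-0.81), Mov10 (-0.73) and Usp18 (-0.58). The Mov10 call was lost, at -0.72 to -0.61, without replicate 1 or 2 of LPS in either genotype, wild-type Dex plus LPS replicate 2 or Setd1aDel/+ Dex plus LPS replicate 1. The Usp18 call was lost, at -0.58 to -0.48, without wild-type LPS replicate 3, wild-type Dex plus LPS replicate 2, Setd1aDel/+ LPS replicate 1 or 2 or Setd1aDel/+ Dex plus LPS replicate 3.

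In the IFNB1 experiment the IFNB1 response differed between the genotypes for 33 of 41 members. All 33 were larger in Setd1aDel/+ cells (all genes, 3.31% (5.66% scaled)), led by Isg20 (1.85), Ddx60 (1.65) and Isg15 (1.48). Ddx60 was listed at 0 TPM in every wild-type LPS library and its difference was 0.68 and not called with a pseudocount of 0.1 TPM. It passed the filter on low values only through the Setd1aDel/+ groups. Between the 16 h and 6 h experiments the Dex response of wild-type cells differed for 12 of 40 members. Of these 11 fell further at 16 h (all genes, 4.36% (7.55% scaled)) and Trim25 fell less (all genes, 9.14% (5.41% scaled)). The largest differences were those of Isg20 (-0.95), Lgals3bp (-0.58) and Phf11b (-0.56). The Isg20 call was lost without Dex plus LPS replicate 1 at 16 h (-0.88) or replicate 2 at 6 h (-0.90), and that of Phf11b, at -0.57 to -0.50, without LPS replicate 2 or 3 or Dex plus LPS replicate 1 or 3 at 16 h, or replicate 2 or 3 of either treatment at 6 h. The Setd1aDel/+ difference under LPS differed for 39 of 40, all more negative at 16 h (all genes, 27.8% (20.5% scaled)). They were led by Ifi44l (-2.88), Trim30a (-2.81) and Ddx60 (-2.58).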

How the results depend on the processing

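Counts of called members were recomputed for all 38 comparisons under each alternative. The fit of the compared groups alone, no filter, a pseudocount of 0.1 TPM and the replicate block each left all 38 counts within 1.5 times the reported one. Median-of-ratios scaling moved 1, the members whose LPS response differed in Setd1bKO, from 13 to 21. Leaving out 1 library moved 14 counts and left 268 within that range: the members whose Dex response differed ranged from 0 to 6 in Setd1bKO (4 reported), from 6 to 21 in Setd1aDel/+ cells at 6 h (15 reported) and, between 16 h and 6 h in wild type, from 7 to 12 (12 reported). The cause was not tested.

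Of single members, scaling alone turned directions, in 8 values: Shisa5 to 0.44 in control and 0.097 in Setd1bKO for LPS in marrow-derived cells, Ly6e to -0.047 for Dex in control, Ly6e to 0.33 for LPS in wild type at 16 h, Pml to 0.35 for LPS in Setd1aDel/+ cells at 16 h, Shisa5 to 0.14 and Pml to 0.12 for Setd1aDel/+ under IFNB1 plus LPS, and Trim21 to 0.13 for Setd1aDel/+ with IFNB1 against wild type with LPS. Leaving out 1 library took the call from 383 member values, gave one to 77 and left 10796 as they were.

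Same-numbered libraries did not deviate together on average: the mean correlation of their deviations lay between -0.0268 and 0.00759 in the 4 experiments. Single pairs ranged from -0.322 to 0.278, both in the 16 h experiment. The numbers are not taken as pairs, though a mean cannot exclude pairing within some groups. With the replicate block 12 member calls were lost and 10 gained, no direction turned, and the count for Dex in control marrow-derived cells was 36 (34 without the block). Low genes such as Ddx60 have the least certain changes, since read numbers are unknown.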
